A study of Mus musculus with 18 samples.

Results

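Dense methylated CpG tiles were 1 kb stretches of the mouse genome in which many CpGs were read and nearly all of the reads were methylated. CpGs with at least 5 reads in each of 18 libraries were summed by tile, and a tile on chromosomes 1 to 19 was kept when it held 10 or more such CpGs and its methylation level, the share of methylated reads averaged over the 18 libraries, was over 80%. The rule kept 3519 tiles of the 14764 with 10 or more CpGs on these chromosomes (23.8%), and of the 77064 tiles with 3 or more CpGs that were fitted in all. Another 541 dense tiles (3.66%) had middle levels of 20 to 80% and 10704 (72.5%) were unmethylated at 20% or lower. The members were thus chosen by their own methylation level in these libraries, and their high level is a description and not a result.

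DNA came from mammary glands of C57BL/6 female mice, from which epithelial cells labelled as stem, luminal progenitor and mature luminal were purified. The stages were virgin at week 3 and week 9, pregnant at day 10, day 16 and day 19, and retired breeder, with 1 library for each cell type at each stage. Each cell type therefore had 3 pregnant, 1 retired and 2 virgin libraries, and stages served as replicates of a state. The libraries were made by reduced representation bisulfite sequencing, in which MspI cuts DNA at CCGG, and bisulfite turns unmethylated cytosine into uracil. Nothing in the labels tells if animals were pooled or shared between libraries, how the cells were gated, or how old the retired breeders were, so p-values measure the spread between these libraries alone, which may be technical. All groups shared the strain and sex. The files hold no expression, and of the marker genes of the labelled cell types and other mammary cells only 1 start could be placed in a fitted tile, so the labels could not be checked against markers. The libraries held 17513287 (retired mature) to 117922522 (week 9 mature) reads at CpGs, and the median member tile held 201 reads in the retired progenitor library and 1425 in the week 9 mature library.

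In mammals most CpGs are methylated, while CpG-dense stretches, called CpG islands, are mostly kept free of methylation at gene starts. Methylated cytosine is prone to mutate to thymine, so methylated DNA tends to lose its CpGs over evolution, and DNA that is both dense in CpGs and methylated is unusual. Known examples are young retrotransposons and the promoters of genes used only in germ cells, which DNA methyltransferases keep silent in somatic tissue. The promoter of the mouse L1 retrotransposon is built of tandem copies of a unit called a monomer, whose length differs between L1 subfamilies.

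The sequences below are RefSeq windows (build GRCm38.p6) picked in 2 ways. They are 250 bases upstream of the 3 gene starts that fell inside a tile, and 2 windows of 300 bases that carry the spacing of repeated units described below. They do not stand for all tiles. Each is printed 5′ to 3′ along its gene. In the first 3, capitals mark CpGs listed in the deposited files, and in the last 2, CpGs at the spacing of the repeated unit.
Slc25a31: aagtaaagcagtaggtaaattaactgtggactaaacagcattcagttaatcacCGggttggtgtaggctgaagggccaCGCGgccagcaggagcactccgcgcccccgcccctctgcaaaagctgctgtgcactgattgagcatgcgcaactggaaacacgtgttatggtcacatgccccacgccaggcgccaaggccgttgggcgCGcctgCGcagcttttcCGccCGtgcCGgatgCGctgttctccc
Dmrtb1: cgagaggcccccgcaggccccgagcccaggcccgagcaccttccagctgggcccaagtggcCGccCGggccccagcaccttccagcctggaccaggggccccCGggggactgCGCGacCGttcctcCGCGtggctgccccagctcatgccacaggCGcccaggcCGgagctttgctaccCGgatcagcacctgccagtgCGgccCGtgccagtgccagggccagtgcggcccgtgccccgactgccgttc
Gm30645: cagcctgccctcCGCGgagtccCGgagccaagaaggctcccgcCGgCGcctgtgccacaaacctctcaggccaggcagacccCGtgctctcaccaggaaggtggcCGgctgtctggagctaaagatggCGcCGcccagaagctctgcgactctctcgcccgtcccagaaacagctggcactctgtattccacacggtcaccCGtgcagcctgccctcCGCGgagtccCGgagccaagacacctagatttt
Gm5636: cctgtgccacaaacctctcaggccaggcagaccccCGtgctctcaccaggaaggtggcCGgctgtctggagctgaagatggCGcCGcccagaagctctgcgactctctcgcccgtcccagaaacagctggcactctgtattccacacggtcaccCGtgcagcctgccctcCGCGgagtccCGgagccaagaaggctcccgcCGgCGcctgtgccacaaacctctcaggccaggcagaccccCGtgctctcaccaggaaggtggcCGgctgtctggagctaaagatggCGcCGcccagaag
A230004M16Rik: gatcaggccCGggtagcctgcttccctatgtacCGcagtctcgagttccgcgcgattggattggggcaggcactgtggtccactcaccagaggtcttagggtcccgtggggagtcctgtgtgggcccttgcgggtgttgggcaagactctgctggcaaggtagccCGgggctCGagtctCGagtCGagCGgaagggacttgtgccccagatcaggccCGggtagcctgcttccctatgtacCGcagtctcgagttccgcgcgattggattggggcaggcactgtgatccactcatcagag

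The tiles largely repeated one another. In 2891 of the 3519 (82.2%), a run of 9 consecutive listed CpGs had exactly the same spacing as in another member, in either orientation. The same was true of 443 of 10704 dense unmethylated tiles (4.14%), of 140 of 541 dense middle tiles (25.9%), and of 2618 of the 5910 sparse methylated tiles (fewer than 10 kept CpGs) that listed enough CpGs to be compared (44.3%). In 2538 members (72.1%) the spacing recurred in at least 9 other members, against 23 dense unmethylated tiles (0.215%). The contrast with dense unmethylated tiles depended on the length compared: over 7 CpGs, 88.0% of members and 46.6% of dense unmethylated tiles shared their spacing, though only 3.70% of the dense unmethylated tiles shared it with 9 or more others, against 81.0% of members. Tiles linked by shared spacing formed 39 groups. The largest held 1781 members (50.6%), the next 565 (16.1%) and the third 393 (11.2%). The other 36 groups held 152 members, at most 23 each, and 628 members (17.8%) shared their spacing with no other member.

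Within each of the 3 large groups, CpGs recurred at a fixed distance. The commonest distance between 2 CpGs of a tile, among distances of 100 to 300 bp, was 212 bp in the largest group, at 12514 pairs, 208 bp in the second, at 8269 pairs, and 206 bp in the third, at 2671 pairs. At least 3 pairs of CpGs lay exactly 1 unit apart in 58.6% of tiles of the 212 bp family, 98.4% of the 208 bp family and 44.8% of the 206 bp family. As background, monomers of about these lengths are known from the Tf, A and Gf subfamilies of mouse L1. No repeat annotation of the files' build (mm9) was used, so whether these tiles are L1 promoters was not tested. Tiles with no shared spacing had only a weak peak, at 214 bp with 350 pairs.

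**Figure D1:**
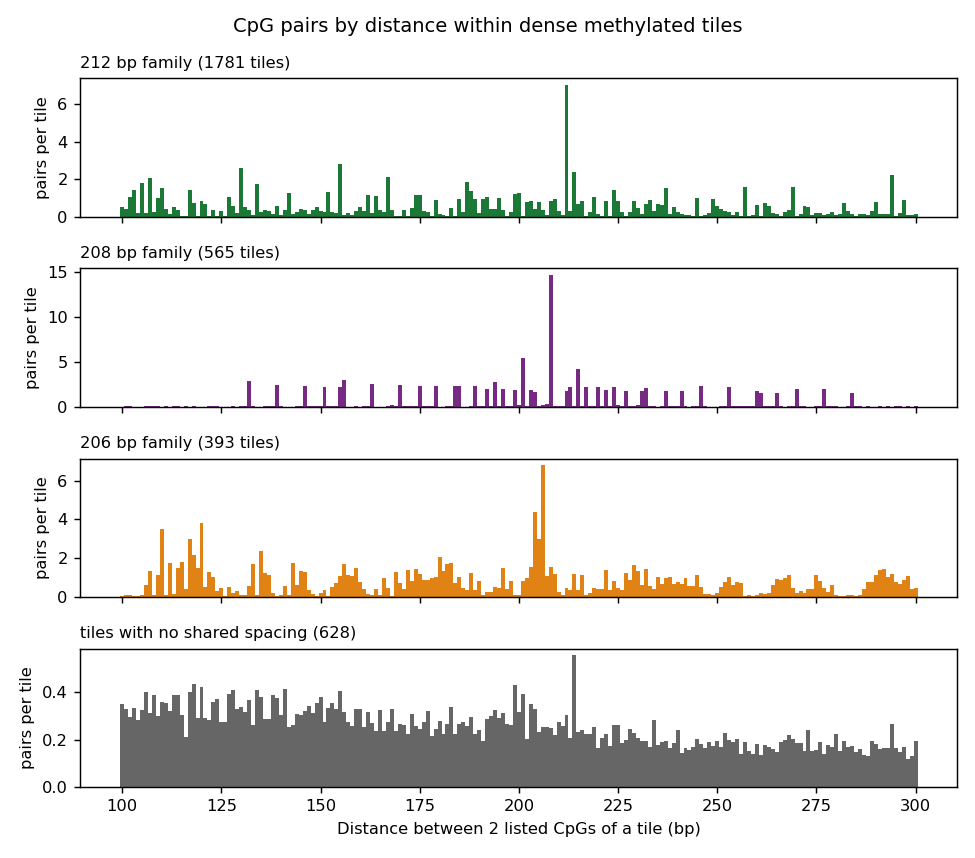
Number of CpG pairs per tile (vertical axis) at each distance from 100 to 300 bp (horizontal axis) for the 3 large families and for tiles with no shared spacing. The families peak at 212, 208 and 206 bp; the vertical scales differ between panels.

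The letters of the 2 printed windows that were picked for carrying the spacing show the 206 and 208 bp units. In the window of Gm5636, a long noncoding RNA gene on chromosome X, the sequence moved by 206 bp matched itself at 93 of 94 bases (98.9%). In that of A230004M16Rik, a long noncoding RNA gene on chromosome 11, a move of 208 bp matched 90 of 92 bases (97.8%). These were the only windows of the 32851 in the RefSeq table that held all CpGs of a 206 bp or a 208 bp unit in order, and none held the 212 bp unit. The window of Gm30645, a long noncoding RNA gene on chromosome 7 whose start lay in a tile of the 206 bp family, shared an unbroken run of 117 bases with that of Gm5636. Within the printed stretch of Gm30645 the best move was 205 bp and matched 35 of 45 bases (77.8%). For Slc25a31 and Dmrtb1 the best move within the printed stretch matched 35.2% and 48.5% of bases.

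Gene starts were placed by matching the CpG spacing of RefSeq promoter windows to the CpG positions in the files, without converting coordinates. Of 16477 windows with 7 or more CpGs on chromosomes 1 to 19, 7785 were placed, for 6940 genes, and 99.9% of matches followed the gene order of the table. Chromosome 18, with 119 members, was not among the chromosomes with placed starts and was not used for distances. These cover 3400 members and 10376 dense unmethylated tiles, while the shares that follow are of all tiles, chromosome 18 included. A placed start fell in 3 members (0.0853%), in 4240 dense unmethylated tiles (39.6%), in 34 dense middle tiles (6.28%) and in 18 sparse methylated tiles (0.0596%). The median distance to the nearest placed start was 399 kb for members, with quartiles of 162 and 939 kb. It was 0.818 kb for dense unmethylated tiles, 48.9 kb for dense middle tiles and 159 kb for sparse methylated tiles. Members with no shared spacing lay nearer, at a median of 197 kb, than the 3 families, at 410 to 470 kb. Starts that could not be placed are missed, which lengthens distances, and a window could be placed only where its CpGs were read, which differs between kinds of tile. A window also had to lead the next best place on its chromosome by at least 2 CpGs, which repeated spacing can prevent. Spacing over 9 CpGs was shared by 82.2% of members but by 4.14% of dense unmethylated tiles. The part of this in the shares and distances was not tested. With windows placed by 12 or more CpGs, the medians were 538 kb for members and 26.8 kb for dense unmethylated tiles.

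**Figure D2:**
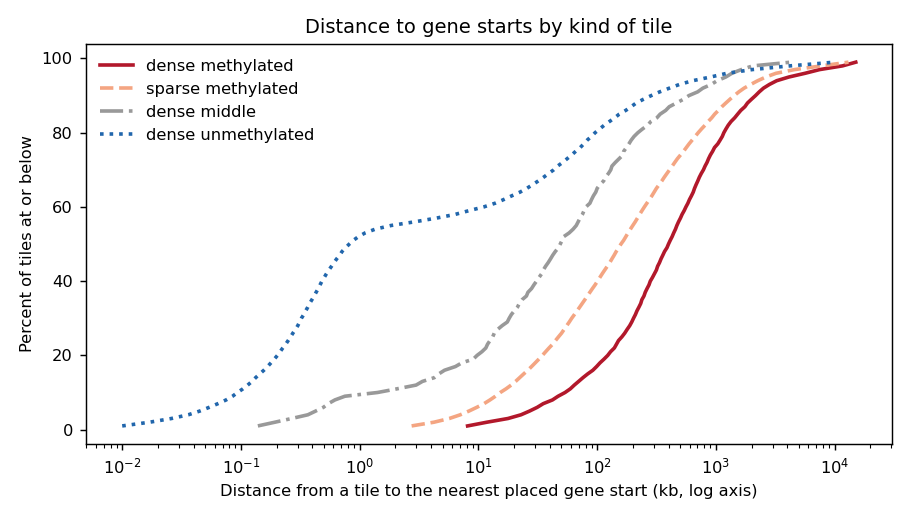
Percent of tiles (vertical axis) within a given distance of the nearest placed gene start (horizontal axis, kb, log scale), for dense methylated tiles and 3 other kinds of tile. The median was 399 kb for dense methylated and 0.818 kb for dense unmethylated tiles.

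The 3 starts inside members belonged to Slc25a31, an ADP/ATP carrier of the mitochondrion made mainly in testis, Dmrtb1, a DM-domain transcription factor of spermatogonia, and Gm30645. The Slc25a31 tile, chr3:40512001-40513000 (mm9, as for each tile named below), held 12 CpGs at a mean of 93.8%, between 88.3% in the day 10 stem library and 97.8% in the week 9 stem library. The Dmrtb1 tile, chr4:107356001-107357000, held 14 CpGs at 93.6%, between 90.6% and 96.1%. The Gm30645 tile, chr7:11056001-11057000, held 15 CpGs at 86.6%, between 81.9% and 89.2%. The tiles of both germ cell genes had 88.3% or more in each of the 18 libraries. As members they were chosen for a high mean in these same libraries. Within the printed upstream bases, the CpGs with 5 reads everywhere had mean levels of 90.9 to 95.9% at Slc25a31 (3 CpGs), 89.6 to 95.6% at Dmrtb1 (7 CpGs) and 78.4 to 97.3% at Gm30645 (12 CpGs).

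Among 20 germ cell genes listed for promoters that are methylated in somatic cells, 6 starts were placed and 4 lay in fitted tiles, and all 4 of these tiles were over 80%. Besides Slc25a31 they were Hormad1, a protein of meiotic chromosome axes (92.9%, 8 CpGs), Mael, a factor of transposon silencing in germ cells (93.4%, 5 CpGs), and Tex101, a germ cell surface protein (88.1%, 4 CpGs), which had too few CpGs to be members. No member held the start of a listed homeobox gene, and all 25 of these in fitted tiles were at 20% or lower. Likewise none of 4 placed imprinted genes and none of 3 placed mammary regulators had its start in a member. These counts cover few genes, since most listed starts could not be placed. Of all 6940 genes placed, only 3 had a start in a member, so finding none in a short list says little about the listed genes.

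Members were scattered along the genome. Of the dense tiles of a chromosome, members made up 35.3% on chromosome 3 (283 of 801), 32.1% on chromosome 6 and 31.5% on chromosome 14, but 11.7% on chromosome 11 and 10.8% on chromosome 19 (50 of 464). Single tiles made up 2850 of the members, and 669 (19.0%) lay in runs of 2 or more. The longest run, 11 tiles at chr3:93086001-93097000, held 150 CpGs with tile means of 96.8 to 97.4%. The next, 8 tiles at chr10:27538001-27546000, held 125 CpGs at 92.8 to 94.6%, and 6 tiles at chr2:21923001-21929000 held 109 CpGs at 92.3 to 93.4%. Of 1023 fitted tiles that bordered a member without being one, 975 (95.3%) were themselves over 80%, 46 (4.50%) had middle levels and 2 (0.196%) were at 20% or lower.

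A member held 10 to 52 kept CpGs, with a median of 13 and quartiles of 11 and 17. Together they held 52735 CpGs, or 7.41% of the 711980 with 5 reads in all libraries. Tile means ran from 80.1 to 97.8% with a median of 92.1%, and 2589 members (73.6%) were over 90%, while 194 were under 85%. The 5 members nearest the threshold had means of 80.1, 80.2, 80.2, 80.4 and 80.4%, and the 3 dense tiles just below it had 79.96, 79.95 and 79.91%. The 5 members with most CpGs, 48 to 52 each, were of the 212 bp family and had means of 93.5 to 94.1% with ranges over the libraries of 1.94 to 3.13 points. The highest means, 97.6 to 97.8%, were in 5 tiles that shared their spacing with no other member.

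Families differed in level. The median tile mean was 92.2% in the 212 bp family, 92.8% in the 208 bp family, 87.5% in the 206 bp family, 89.7% in the small groups and 90.5% in tiles with no shared spacing. Library medians stayed within 91.8 to 92.6% for the 212 bp family, 92.1 to 93.5% for the 208 bp family and 86.9 to 88.1% for the 206 bp family. The median of the 206 bp family was thus below those of both other families in each of the 18 libraries, with no overlap of these medians. Single tiles did overlap. The 95th percentile of tile means was 89.0% in the 206 bp family, and the 5th percentile was 88.8% in the 212 bp family.

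Levels also differed between the CpGs of a unit. They were taken only from tiles that held a whole unit at the commonest spacing of its family. These were 280 of the 1781 tiles of the 212 bp family, 435 of 565 of the 208 bp family and 154 of 393 of the 206 bp family. In the 212 bp unit of 9 listed CpGs, the ninth averaged 76.1% over 309 copies, with libraries between 74.1 and 77.5%. The CpG before it, 25 bp away, averaged 95.4% over 316 copies, with libraries between 93.9 and 96.2%. The second CpG averaged 86.7% over 332 copies, against 95.5% and 96.3% for its neighbours at 3 and 7 bp. In the 208 bp unit the first CpG averaged 86.4% over 771 copies and the second 94.5% over 830 copies. In the 206 bp unit the first CpG averaged 78.7% over 258 copies and the fourth 95.7% over 259 copies. For these named pairs of CpGs the libraries did not overlap. Whether copies with a changed base lowered some of these levels was not tested. Among CpGs with fewer copies the order changed between libraries: the sixth CpG of the 206 bp unit, with 34 copies, averaged 82.5%, with libraries between 75.8 and 85.1%, on both sides of the first CpG.

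**Figure D3:**
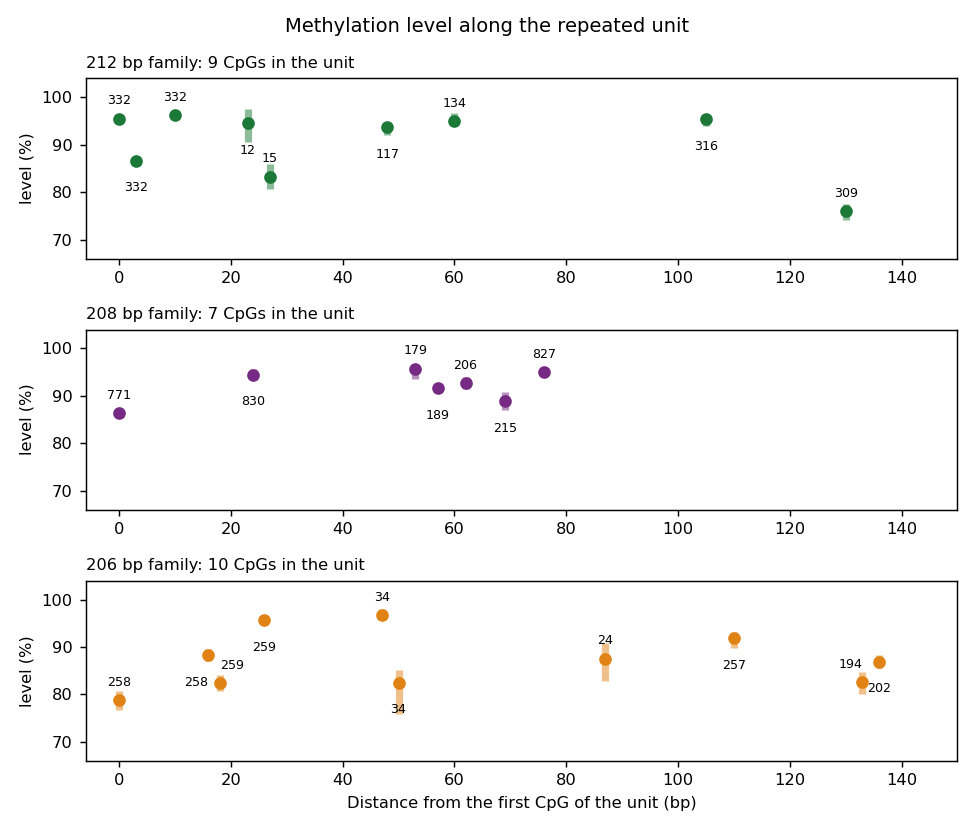
Mean methylation level (points, vertical axis, %) of each CpG along 1 repeated unit (horizontal axis, bp from its first CpG) in the 3 families; bars run from the lowest to the highest of the 18 libraries and the number of copies stands beside each point. Only tiles that held a whole unit at the commonest spacing of its family were used. The ninth CpG of the 212 bp unit lay at 76.1%, while its neighbour lay at 95.4%.

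Single CpGs of members had a median of 93.5%, and the lowest 5% were under 77.2%. Only 349 CpGs (0.662%) averaged under 50%, in 298 members (8.47%), and 88 of them averaged under 20%. The 5 tiles with the widest spread between their own CpGs each held a CpG between 0.00 and 0.899% beside others of 95.3 to 98.2%, as at chr1:107736001-107737000 in the 212 bp family and chr13:31475001-31476000 in the 208 bp family. Such a CpG was read as low within an otherwise methylated tile. Whether it was unmethylated, or no longer a CpG in the DNA that was read, was not tested.

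Levels were alike across libraries. The median member level ran from 91.2% in the day 16 stem library to 92.4% in the week 3 mature library. The mean level was 90.7 ± 0.30% in pregnant (SD, n = 3) and 91.1 ± 0.27% in virgin stem libraries (SD, n = 2). It was 91.1 ± 0.35% in pregnant and 90.9 ± 0.23% in virgin progenitor libraries, and 91.1 ± 0.37% in pregnant and 91.4 ± 0.17% in virgin mature libraries (SD, n = 3 and 2). The differences, pregnant minus virgin, were -0.36 points in stem, 0.17 in progenitor and -0.32 in mature cells, and the libraries of both states overlapped in each cell type. Single retired libraries had 90.9% in stem, 91.3% in progenitor and 90.9% in mature cells, or -0.17, 0.39 and -0.51 points from the virgin mean, and the last 2 lay outside the range of the virgin libraries. Averaged over the 6 stages, the mean level was 90.9 ± 0.29% in stem, 91.1 ± 0.28% in progenitor and 91.1 ± 0.32% in mature cells (SD, n = 6). Differences with pregnancy and cell type were thus about the size of the spread between libraries. Retirement had 1 library per cell type, so its own spread is unknown. A single library can readily fall outside a range set by 2, so no difference with retirement is read from these values.

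**Figure D4:**
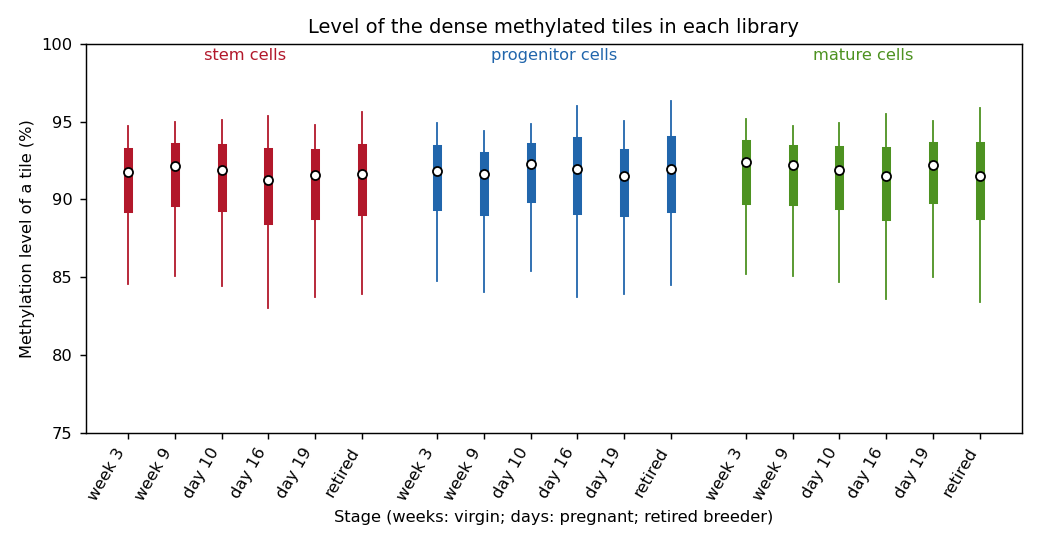
Methylation level (vertical axis, %, from 75) of the 3519 tiles in each of the 18 libraries, by cell type and stage (horizontal axis). Circles are medians, thick bars the middle 50 percent and thin bars the 5th to 95th percentile of tiles; medians lay between 91.2 and 92.4%.

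Members had narrower ranges between libraries than other methylated tiles. The range of a tile over the 18 libraries had a median of 5.52 points among members, against 13.2 points for sparse methylated, 21.1 for dense middle and 1.10 for dense unmethylated tiles. Reads differ with the class: the median tile held 631 reads per library among members and 181 among sparse methylated tiles, and the part of depth in the narrower range was not tested. Only 31 members (0.881%) ranged over more than 20 points, and 24 of these shared their spacing with no other member. Members under 80% in a single library numbered 15 to 75, most in the day 16 stem (75) and day 16 progenitor (65) libraries. The shallowest libraries, retired mature and retired progenitor, had 50 and 36, and the part of depth in these counts was not tested.

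The study asked whether pregnancy alters methylation in mammary stem cells, so each tile was compared between pregnant and virgin stem libraries. A quasi-binomial logistic regression was fitted to methylated and unmethylated reads of all 77064 tiles, and a tile was called at a Benjamini-Hochberg adjusted p under 0.05 with a difference of 10 points or more. It called 1 of 3519 members (0.0284%), against 0.235% of all tiles. Before adjustment 156 members (4.43%) had a p under 0.05, against 14.3% of all tiles. Of these, 105 were lower and 51 higher in pregnant stem cells, where 10.1% of all tiles were lower and 4.14% higher. The pregnant and virgin stem libraries did not overlap in 651 members (18.5%), against 26.1% of all tiles. Members below the virgin libraries numbered 426, against 18.0% of all tiles, and those above 225, against 8.06% of all tiles. The median difference was -0.30 points over members and -0.22 points over all tiles, and 90% of members lay between -2.69 and 1.82 points. Only 13 members differed by 10 points or more. Members were kept by their mean over these same libraries, which limits how far their levels could differ.

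The repeated families stood below the other members in these counts. The share of tiles with an unadjusted p under 0.05 was 2.64% in the 212 bp family, 2.65% in the 208 bp family, 4.07% in the 206 bp family, 6.58% in the small groups and 10.8% in tiles with no shared spacing. It was 10.2% in sparse methylated, 11.2% in dense unmethylated and 23.5% in dense middle tiles. The 10 members named for the largest differences in stem cells, the called one among them, shared their spacing with no other member. Whether the families differ from other members was not tested.

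The called member, chr3:100881001-100882000, had 10 CpGs and lay 32.6 kb from the placed start of Ptgfrn, an immunoglobulin superfamily membrane protein that binds tetraspanins. In pregnant stem libraries its level was 92.2% at day 10, 96.7% at day 16 and 94.1% at day 19, against 80.1% at week 3 and 69.9% at week 9 in virgin stem libraries. Pregnant stem cells averaged 94.4 ± 2.28% (SD, n = 3) and virgin stem cells 75.02 ± 7.18% (SD, n = 2), a difference of 19.3 points (quasi-binomial regression, adjusted p = 0.0377). The retired stem library had 98.7% (226 of 229 reads, 95% Wilson interval of 96.2 to 99.6%, for counting error alone). All 3 pregnant stem libraries thus lay above both virgin ones, and so did the retired one.

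In progenitor cells the same tile had 93.9, 91.3 and 94.4% at days 10, 16 and 19 of pregnancy, against 91.4 and 90.1% at weeks 3 and 9. In mature cells it had 91.6, 86.3 and 93.4% in the pregnant libraries, against 95.3 and 94.4% in the virgin ones. The change with pregnancy was 2.43 points in progenitor and -4.38 points in mature cells. Its difference from the change in stem cells was not past the threshold (adjusted p = 0.266 for progenitor and 0.0764 for mature cells, quasi-binomial regression). Of its 10 CpGs, 9 were higher in pregnant stem cells and 5 had no overlap. The sixth, seventh and eighth CpGs, 7 and 15 bp apart, differed most, at 98.6, 96.7 and 91.8% in pregnant stem cells against 68.1, 68.0 and 66.2% in virgin stem cells.

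The call depended on single libraries, while the difference stayed positive. The tile held 93 to 960 reads per library. The call was lost without the week 9 virgin stem library (14.3 points, adjusted p = 0.365), without the day 10 (20.4 points, 0.212) or day 16 (18.1 points, 0.126) pregnant stem library, and without any 1 of the 5 pregnant and virgin progenitor libraries (19.3 points, 0.0568 to 0.0635). It held without the week 3 virgin stem library (24.4 points, 0.00925), without the day 19 pregnant stem library (19.5 points, 0.0473), and without any 1 of the retired or mature libraries (19.3 points, 0.0136 to 0.0479). It was also lost with limma run on the log2 ratio of both kinds of reads (adjusted p = 0.0776), with reads thinned to the shallowest library (0.239), and in the 4-column files alone (0.0668).

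The largest negative difference in stem cells was at chr3:90077001-90078000, a tile of 11 CpGs 8.34 kb from the placed start of Dennd4b, a regulator of Rab GTPases. It had 62.3, 64.01 and 61.1% at days 10, 16 and 19 in pregnant stem libraries, against 88.8 and 92.4% at weeks 3 and 9 in virgin stem libraries. The mean was 62.5 ± 1.46% in pregnant (SD, n = 3) and 90.6 ± 2.56% in virgin stem cells (SD, n = 2), a difference of -28.1 points that missed the threshold (quasi-binomial regression, adjusted p = 0.0603). Leaving out the week 3 or the week 9 virgin mature library brought the adjusted p to 0.00772. The retired stem library was lower still, at 56.3% (152 of 270 reads, 95% Wilson interval of 50.3 to 62.1%). Progenitor libraries had 88.9, 86.0 and 85.2% in pregnancy, against 84.8 and 86.1% in virgins, and mature libraries 86.6, 98.5 and 92.0% in pregnancy, against 91.5 and 75.6% in virgins. The 4 pregnant and retired stem libraries were the lowest of the 18, and no progenitor or mature library was under 75.6%.

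The difference in this tile lay in part of the CpGs read. Its last 7 CpGs, within 72 bp, had means of 37.2 to 54.8% in pregnant stem cells against 81.7 to 94.1% in virgin stem cells, with no overlap and differences of -49.8 to -38.6 points. Its first 4 CpGs, within 92 bp, had means of 91.5 to 100% in pregnant and 87.1 to 98.1% in virgin stem cells, and differed by -3.65 to 4.36 points. A gap of 204 bp without kept CpGs separated them. The single CpGs were read 17 to 116 times per stem library. The tile thus held a stretch that differed little between the states and one that differed by more than the tile mean.

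**Figure D5:**
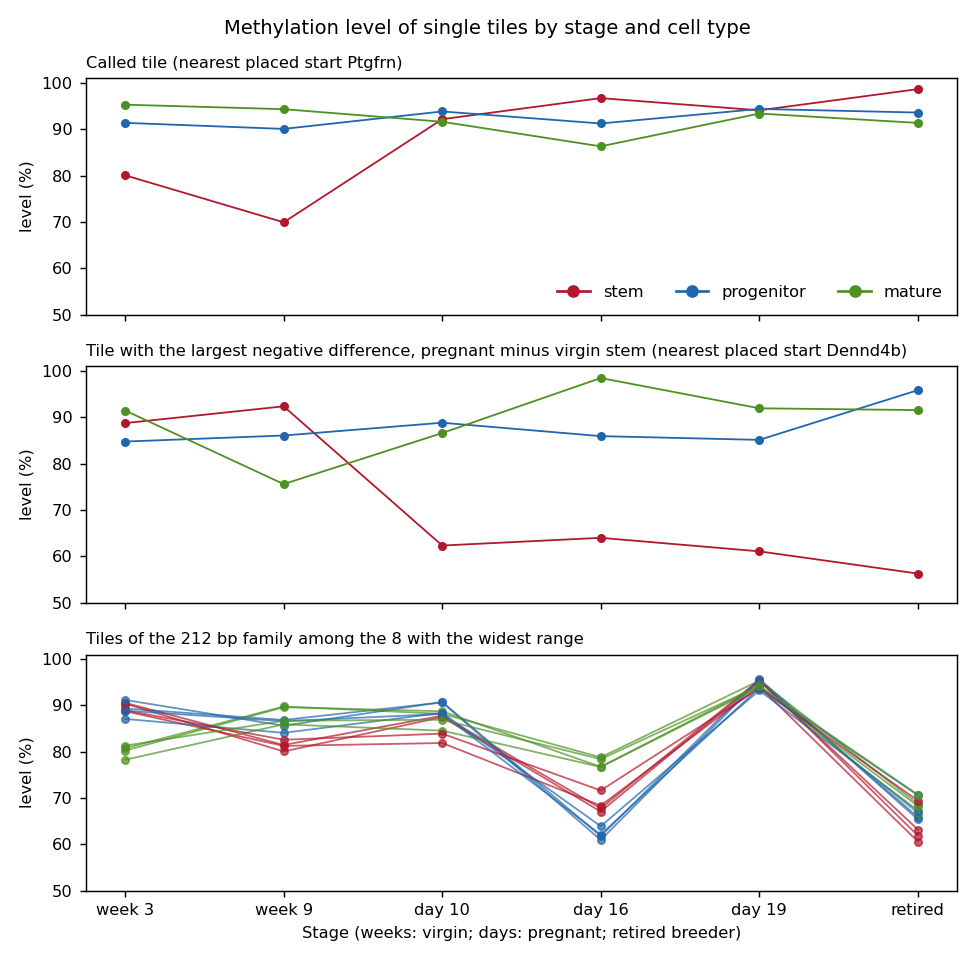
Methylation level (vertical axis, %) by stage (horizontal axis) in stem, progenitor and mature libraries for the called tile, the tile with the largest negative difference in stem cells, and the 4 tiles of the 212 bp family among the 8 with the widest range. Points are single libraries; the second tile lay at 61.1 to 64.01% in pregnant and at 88.8 and 92.4% in virgin stem libraries.

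The next negative differences, pregnant minus virgin, were -22.7 points at chr5:125774001-125775000, -17.3 at chr9:108353001-108354000, -15.3 at chr13:69917001-69918000 and -14.5 at chr17:42907001-42908000. The second of these lay 1.33 kb from the placed start of Ccdc71. It had 71.2, 68.4 and 72.4% in pregnant stem libraries against 85.5 and 90.4% in virgin ones. The next positive differences were 19.1 points at chr12:110272001-110273000, 16.0 at chr9:44852001-44853000, 10.1 at chr16:91760001-91761000 and 9.76 at chr14:58161001-58162000. The first of these lay 18.8 kb from the placed start of Begain and had 90.5, 90.8 and 81.3% in pregnant stem libraries against 72.6 and 64.4% in virgin ones. None of these 8 passed the adjusted threshold (adjusted p of 0.0548 to 0.170), and they were picked for their size. Single libraries decided several of them. Without the week 9 virgin stem library the difference was 8.63 points at chr9:44852001-44853000 and 4.85 points at chr16:91760001-91761000. Without the week 3 virgin stem library it was 23.4 and 15.3 points, and both then passed the threshold (adjusted p = 0.00759 and 0.0270), as did chr12:110272001-110273000 (23.1 points, 0.0479). Without the week 3 or the week 9 virgin mature library, chr17:42907001-42908000 passed (adjusted p = 0.0149), as did chr12:110272001-110273000 (0.0473) and chr9:44852001-44853000 (0.0319).

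In the other 11 comparisons no member and no tile at all was called, so the share of all tiles called was 0.0% in each, and limma called no member either. Members with an unadjusted p under 0.05 were then counted against all tiles. For pregnant against virgin progenitor cells there were 100 (2.84%), against 3.76% of all tiles. Most were higher in pregnant cells: 87 were higher (2.47%), against 1.95% of all tiles, and 13 were lower (0.369%), against 1.81% of all tiles. For pregnant against virgin mature cells there were 98 (2.78%), against 5.08% of all tiles, with 83 lower in pregnant cells (2.36%), against 2.87%, and 15 higher (0.426%), against 2.21%. Averaged over cell types there were 93 (2.64%), against 6.52%, with 64 lower (1.82%), against 4.58%, and 29 higher (0.824%), against 1.94%. Among members with a low p, more were thus higher in pregnant progenitor cells and more were lower in pregnant mature and stem cells. All tiles leaned the same way in each cell type. The median differences in progenitor, mature and stem cells were 0.16, -0.30 and -0.30 points over members, against 0.00, -0.028 and -0.22 points over all tiles. The change with pregnancy in stem cells differed from that in progenitor cells, at the same unadjusted threshold, in 153 members (4.35%), against 10.5% of all tiles, with 125 lower in stem cells, against 7.46%, and 28 higher, against 3.0%. It differed from that in mature cells in 135 (3.84%), against 11.4%, with 82 lower in stem cells, against 7.78%, and 53 higher, against 3.61%. These counts are before adjustment and call nothing, and comparisons that use stem cells share their libraries.

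Retired breeders were compared with virgin and pregnant libraries averaged over cell types. For retired against virgin, 116 members had an unadjusted p under 0.05 (3.30%), against 5.3% of all tiles, with 50 lower in retired breeders, against 1.82%, and 66 higher, against 3.48%. For retired against pregnant there were 120 (3.41%), against 4.82%, with 41 lower, against 1.24%, and 79 higher, against 3.59%. Both comparisons use the same 3 retired libraries.

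Cell types were compared within stages. Stem and progenitor cells differed at an unadjusted p under 0.05 in 134 members (3.81%), against 9.23% of all tiles, with 70 lower in stem cells, against 6.02%, and 64 higher, against 3.22%. For stem against mature cells there were 146 (4.15%), against 10.9%, with 121 lower in stem cells, against 6.92%, and 25 higher, against 3.99%. For progenitor against mature cells there were 142 (4.04%), against 5.95%, with 112 lower in progenitor cells, against 3.12%, and 30 higher, against 2.83%. Members lower in stem than in mature cells made up 3.44%, below the 6.92% of all tiles. Those lower in progenitor than in mature cells made up 3.18%, near the 3.12% of all tiles. Members higher in stem or in progenitor cells than in mature cells made up 0.710% and 0.853%, below the 3.99% and 2.83% of all tiles. For week 9 against week 3 virgin libraries there were 110 (3.13%), against 6.27%, with 72 lower at week 9, against 4.18%, and 38 higher, against 2.09%. Without regard to direction the members' share was below that of all tiles in each of the 12 comparisons. The limma counts of members at an unadjusted p under 0.05 were 47 (1.34%) for pregnant against virgin stem cells, against 11.3% of all tiles, 12 (0.341%) for progenitor cells, against 2.96%, 5 (0.142%) for mature cells, against 3.42%, and 19 (0.540%) for their average, against 6.17%. They were 34 (0.966%) for the difference of the changes in stem and progenitor cells, against 7.86%, and 29 (0.824%) for that of stem and mature cells, against 7.58%. For retired against virgin they were 132 (3.75%), against 16.4%, and for retired against pregnant 176 (5.00%), against 13.8%. They were 42 (1.19%) for stem against progenitor cells, against 8.5%, 35 (0.9946%) for stem against mature cells, against 8.73%, 25 (0.710%) for progenitor against mature cells, against 4.61%, and 0 for week 9 against week 3, against 2.7%. With limma too the members' share was below that of all tiles in each comparison. Members were kept by a high mean over these same libraries, which limits how far they can differ, while all tiles include middle levels. The part of this rule in the lower shares was not tested, and the comparisons share libraries.

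A few members had an order of stages that all cell types shared. At chr15:62525001-62526000, of the 212 bp family with 11 CpGs, stem libraries had 90.6 and 81.5% at weeks 3 and 9, 87.8, 67.8 and 95.5% at days 10, 16 and 19, and 61.9% in retired breeders. Progenitor libraries had 89.4 and 86.9% at weeks 3 and 9, 90.7, 61.0 and 95.4% at days 10, 16 and 19, and 65.9% in retired breeders. Mature libraries had 80.8 and 89.8%, then 88.2, 78.8 and 95.4%, and 68.8% in retired breeders. Day 19 libraries were thus the highest, and day 16 and retired libraries the lowest, in each cell type.

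The same order was seen in 6 members in which each day 19 library lay at least 10 points above each day 16 and retired library. They were 6 of 3519 members, against 0.083% of all tiles (64 of 77064), and the pattern was looked for after it was seen. Of these 6 members, 4 were of the 212 bp family: the tiles at chr7:80072001-80073000, chr11:45539001-45540000 and chr11:45584001-45585000 besides the one above. Their means were 93.8 to 95.4% at day 19, 68.5 to 70.7% at day 16 and 65.2 to 70.3% in retired breeders. The 6 had 1105 to 1982 reads per library on average, against a median of 631 for members. Some were nearly alike in level and in reads. At chr15:62525001-62526000 and chr7:80072001-80073000 the day 16 stem library had 67.8 and 67.1%, and the week 9 mature library 4777 and 4580 reads. Whether such tiles are separate signals or the same repeated sequence placed at several sites was not tested. The day 16 and retired libraries were the shallowest but for the day 19 progenitor library, with 17513287 to 33860141 reads against 29321108 to 56771977 at day 19. All day 19, all retired and the day 16 progenitor files were also deposited in a layout of 6 columns in place of 4. The part of depth and layout in the pattern was not tested, and with 1 library for each cell type at a stage, stage and library cannot be told apart.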

How the data were processed

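Genomic DNA was sequenced by multiplexed reduced representation bisulfite sequencing after MspI digestion, per the labels' protocols. The 18 deposited files list 1 CpG per line with methylated reads over all reads, on build mm9 per the submitters' processing notes. In 7 files the authors deposited 2 more columns, a strand and a score, which were not used; 11 files had 4 columns. The aligner and caller, and how reads that match several places or duplicates were treated, were not given in the sources used here, and levels of repeated tiles may pool near-identical copies.

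CpGs with 5 or more reads in all 18 libraries were summed into 1000 bp tiles. Tiles with 3 or more such CpGs were fitted by quasi-binomial logistic regression (dispersion held at 1 or above and shrunk over tiles by limma's method), with F tests and Benjamini-Hochberg adjustment over 77064 tiles. Pregnancy and retirement were tested in a model of 9 groups of cell type by state, and cell types and week 9 against week 3 in an additive model of both factors, with all 18 libraries in each fit. The test was also run on simulated data, and the moderation was compared with limma's own function. The simulated libraries varied independently by a set spread, so that run cannot vouch for calls where libraries of a stage shift together. Tiles were named by rule: called members, the 5 largest positive and negative differences in pregnant stem cells among those at an unadjusted p under 0.05 without overlap, the 8 widest ranges, the 5 with most CpGs, the extremes of mean and of spread between CpGs, and the 3 just outside the threshold. Tiles that hold a placed gene start were added.

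Spacing was compared over 9 consecutive listed CpGs. A RefSeq window (250 bases before to 50 after a gene start) was placed where at least 7 of its CpGs were listed, no other CpG was listed inside it, and it led the next best place on its chromosome by at least 2 CpGs. Matches out of the table's gene order were dropped. No coordinate of the table was used.

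The members and lists were chosen with earlier results of these data known. Alternatives are given in the closing section. Versions were Python 3.11.15, numpy 2.4.6, scipy 1.17.1, pandas 2.3.3, numba 0.67.0, matplotlib 3.10.9, R 4.3.3 and limma 3.58.1.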

Additional observations from a re-analysis of the deposited data

Results flagged for a closer look

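At the called tile, chr3:100881001-100882000, all 3 pregnant stem libraries lay above both virgin ones and all 3 pregnant mature libraries below both, a difference between the 2 changes of 23.7 points (quasi-binomial regression, adjusted p = 0.0764). At chr14:58161001-58162000 pregnant minus virgin came to 9.76 points in stem and -3.11 points in mature cells, again with no overlap in either, a difference of 12.9 points (adjusted p = 0.208).

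Small opposite moves were seen between progenitor and mature libraries at a pair of tiles with many CpGs. At chr14:106737001-106738000 the change with pregnancy was -0.61 points in progenitor and 0.34 points in mature cells, a difference of -0.95 points. At chr5:90971001-90972000 it was 1.26 points in progenitor and -0.92 points in mature cells, a difference of 2.18 points. These 2 differences between progenitor and mature cells were not tested. Across all members, the retired library lay 0.39 points above the virgin mean in progenitor and -0.51 points from it in mature cells, each outside the range of its 2 virgin libraries. This difference was not tested, and 1 library can readily fall outside a range set by 2. No group held the 4 libraries needed to look for an outlying one.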

How the results depend on the processing

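The 1 member called between pregnant and virgin stem cells depended on the processing. The count was 0 with a minimum of 10 reads (which left 1222 members), with tiles of 500 bp, with a difference of 20 points, with reads thinned to the shallowest library, with the 4-column files alone, by limma, and with at least 15 (1416 members) or 20 (546 members) CpGs per tile. It was 2 without chromosomes X, Y and M and 4 with any CpG of 5 reads in a library. Leaving out single libraries gave 0 to 6. The difference of the changes in stem and mature cells gave 0 to 5 called members without single libraries, 1 without the week 3 stem and 5 without the week 3 mature library. The cause was not tested. Tiles called in all in stem cells numbered 181, against 0 to 1360 under the alternatives, and members at an unadjusted p under 0.05 numbered 156, against 18 to 172. Where no tile at all was called, single libraries left out gave up to 1339 tiles for the stem and mature difference, 4 for the stem and progenitor difference, 16 for pregnant against virgin mature cells, 8 for stem against mature cells and 1 for week 9 against week 3, and limma gave 38 for retired against virgin and 65 for retired against pregnant. No comparison besides these called a member under any alternative run. The difference of mean level, pregnant minus virgin, lay between -0.55 and -0.17 points in stem, 0.0052 and 0.35 points in progenitor and -0.50 and -0.13 points in mature cells without single libraries, moves within the larger SD of the 2 groups but in mature cells beyond the smaller one of 0.17.

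No paired analysis was possible for pregnancy within a cell type because virgin and pregnant libraries share no stage. The difference of its effect between cell types could be taken within stages, by a replicate block added after seeing the data (a model of groups plus stage). It called 0 members, as without the block, and 139 (3.95%) for stem and progenitor and 121 (3.44%) for stem and mature cells had an unadjusted p under 0.05, against 10.7% and 11.2% of all tiles. The called tile then had an adjusted p of 0.142 for stem against mature and 0.260 for stem against progenitor cells. Cell types were compared within stages; with no replicate block, 0 members were called (6 of all tiles for stem against mature cells, against 0 with the block), and an unadjusted p under 0.05 was reached by 139 (3.95%) for stem against progenitor, 140 (3.98%) when stem was set against mature cells, and 131 (3.72%) with progenitor against mature cells, against 8.34%, 10.6% and 5.28% of all tiles. Chosen after seeing the data, spacing over 7 CpGs was shared by 88.0% of members and over 11 CpGs by 75.4%, and with windows placed by 12 or more CpGs the median distance of dense unmethylated tiles was 26.8 kb, while that of members was 538 kb. Retired comparisons could not be fitted with the 4-column files alone. Depth was least in the retired progenitor library, where the median member held 201 reads.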
